A study of Mus musculus with 14 samples.

Results

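Contacts of the start sites of Tbx3, Tbx5, Tbx2 and Tbx4 were followed in 4 groups of F123 mouse cells assayed by H3K4me3 PLAC-seq. The method ligates DNA ends that lie close together in the nucleus and enriches, by immunoprecipitation, those carrying trimethylated histone H3 lysine 4, the mark of active promoters. The groups were neural precursor cells (NPCs) at day 4 of differentiation with auxin, NPCs at day 4 without auxin (control), embryonic stem cells (ESCs) after 48 h of auxin, and ESCs after 0 h of auxin (control). In all 4 groups CTCF carried an auxin-inducible degron, so that auxin, added as 1 µl of a 500 mM stock per ml of medium, depletes the protein; the NPC titles do not state for how many hours. The titles place 2 samples in each group, and MAPS and FitHiChIP each supply 1 list of called contacts per group, so no difference below has a replicate check and no test of the conditions could be made.

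The members were the 4 T-box genes, of 21900 protein-coding genes in the annotation, and their contacts were the rows with an anchor in the 10 kb bin of a gene's start. These made up 281 of 208852 contacts over the 4 MAPS lists and 105 of 125908 over the 4 FitHiChIP lists. A called pair of bins is termed a loop here, and many loops are adjacent bins of 1 broader contact. Intervals are exact 95% intervals that cover counting error only, and they treat adjacent loops as independent. The MAPS lists held 41667 loops in NPC auxin, 82861 in NPC control, 27610 in ESC auxin and 56714 in ESC control, and the FitHiChIP lists gave total contacts between 47519917 and 59961568 per list. H3K4me3 does not separate the labelled cells clearly. Of 7 genes typical of ESCs, 6 had a marked bin with a loop in both NPC control and ESC control, and of 8 genes typical of NPCs the counts were 7 in NPC control and 6 in ESC control.

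T-box genes encode transcription factors that bind DNA through a shared T-box domain. Tbx2 and Tbx3 mainly repress transcription, whereas Tbx4 and Tbx5 mainly activate it, and the genes lie as linked pairs, Tbx3 with Tbx5 and Tbx2 with Tbx4. Tbx3 acts in the self-renewal of mouse ESCs and in limb, heart and mammary development, Tbx5 in heart and forelimb, Tbx2 in heart and limb, and Tbx4 in hindlimb and lung. CTCF is the zinc finger protein at which loop extrusion by cohesin tends to halt.

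In mm10, Tbx3 spans chr5:119670534-119684724 and its start bin is chr5:119670001-119680000, which also holds the start of the antisense non-coding gene Tbx3os1, so contacts of both starts are counted together. Tbx5 spans chr5:119796514-119885220, and the bin of its annotated start begins 120 kb from the Tbx3 bin. Tbx2 spans chr11:85832615-85841948 in a bin that also holds the upper end of the non-coding gene 2610027K06Rik, and Tbx4 spans chr11:85886367-85916097, 50 kb further on. The lists also mark a bin inside Tbx5 (chr5:119830001-119840000, shared with the non-coding Gm5563) and a bin inside Tbx4 (chr11:85890001-85900000) that holds another RefSeq start of that gene. The inner Tbx5 bin is the marked bin of that gene with the most MAPS loops summed over the 4 lists, though not in either NPC list. Both inner bins were added after their values had been seen and are given beside the start bins.

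Of the 4 genes only Tbx4 has an entry in the RefSeq promoter table used here (GRCm38.p6, 250 bases before to 50 after a start). Its promoter, chr11:85896515-85896814 on the plus strand, lies in the inner Tbx4 bin that reached Tbx2. The promoter of Tbx3os1, chr5:119671459-119671758 on the minus strand, is shown because it lies in the Tbx3 bin, and that of Tbx3os2, chr5:119691169-119691468 on the minus strand, because it lies between Tbx3 and Tbx5 and holds a CTCF core match. The single capital is the first base of the RefSeq start, and the run of capitals in Tbx3os2 is the match.
Tbx4: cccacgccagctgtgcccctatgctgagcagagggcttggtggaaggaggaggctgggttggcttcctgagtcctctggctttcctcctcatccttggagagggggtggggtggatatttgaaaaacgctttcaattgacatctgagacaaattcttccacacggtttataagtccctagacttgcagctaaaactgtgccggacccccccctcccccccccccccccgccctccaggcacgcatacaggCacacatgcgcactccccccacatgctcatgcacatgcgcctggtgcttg
Tbx3os1: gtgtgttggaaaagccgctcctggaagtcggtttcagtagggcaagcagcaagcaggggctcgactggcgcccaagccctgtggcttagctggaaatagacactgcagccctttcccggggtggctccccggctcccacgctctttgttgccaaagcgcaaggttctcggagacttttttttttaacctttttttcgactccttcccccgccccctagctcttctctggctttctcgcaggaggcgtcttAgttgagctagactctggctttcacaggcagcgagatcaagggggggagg
Tbx3os2: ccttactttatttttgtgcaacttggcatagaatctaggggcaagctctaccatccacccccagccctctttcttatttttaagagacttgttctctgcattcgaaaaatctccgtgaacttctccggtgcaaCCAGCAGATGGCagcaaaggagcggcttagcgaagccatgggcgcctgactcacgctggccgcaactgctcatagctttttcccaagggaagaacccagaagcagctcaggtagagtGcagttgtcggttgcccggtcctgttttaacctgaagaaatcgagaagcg
The CTCF core searched reads CCA, any 2 bases, AG, any 2 bases and GGC. It was searched on both strands, as was the T-box half-site AGGTGTGA, and no matches overlapped in the promoters shown. The core was present in 797 of 32851 promoters of that length (2.43%) and the half-site in 419 (1.28%). Among 5 promoters from the Tbx3 bin to the end of Tbx5, 1 held the core, and neither motif occurred in the windows of Tbx4 and Tbx3os1. GC content was 59.0% with 8 CpG dinucleotides for Tbx4 and 57.3% with 14 for Tbx3os1, where the median of all promoters was 52.7% with 7. A match of letters does not show binding.

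Tbx3 and Tbx2 were the members with many loops, and both had most of them in NPCs. The Tbx3 bin had 29 MAPS loops in NPC auxin, 64 in NPC control, 10 in ESC auxin and 15 in ESC control. For Tbx2 the counts were 49 in NPC auxin, 60 in NPC control, 12 in ESC auxin and 17 in ESC control. In NPC control, 22 of 16056 marked bins with loops had more loops than Tbx3 and 32 had more than Tbx2, where the median bin had 4. In ESC control, 541 of 15838 bins exceeded Tbx3 and 371 exceeded Tbx2, with a median of 3.

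The partner genes had fewer loops. The Tbx5 start bin had no MAPS loop in either NPC list, 2 in ESC auxin and 9 in ESC control. The inner Tbx5 bin, picked on these counts, had fewer in NPCs, with 3 loops in NPC auxin, 5 in NPC control, 8 in ESC auxin and 11 in ESC control. The other marked bins of Tbx5 did not share this order in every list. The bin at 130 kb from Tbx3, next to the start bin, had 5 in NPC auxin, 6 in NPC control, 5 in ESC auxin and 10 in ESC control, and the bin at 190 kb had 3, 4, 4 and 3 in that order of lists. Tbx4 had no loop in NPC auxin, 8 in NPC control, 1 in ESC auxin and 5 in ESC control, and its inner bin had 0, 1, 3 and 2 in that order of lists. A bin with no loop has no row in a list, so the mark and reads of the Tbx5 start bin in NPCs cannot be read from it.

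**Figure D1:**
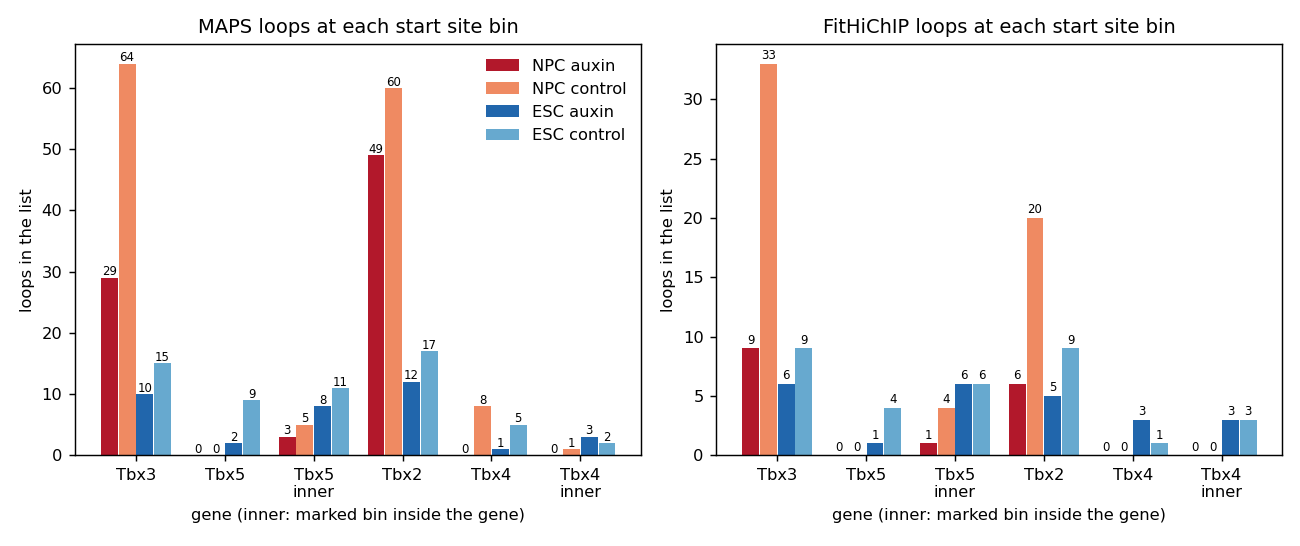
Number of called loops at each start bin and at the marked bins inside Tbx5 and Tbx4, for MAPS (left) and FitHiChIP (right), with 1 bar per list and no error, since each group has 1 list. The NPC control bars of Tbx3 (64 MAPS loops) and Tbx2 (60) stand above all others, and those of Tbx5 are 0 in both NPC lists.

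Between the cell types without auxin, Tbx3 and Tbx2 had more loops in NPCs than the longer NPC list would give. The relative change, which is the log2 ratio of loops plus 1 minus the log2 ratio of list totals, was 1.48 for Tbx3 in NPC control against ESC control (interval 0.72 to 2.46) and 1.21 for Tbx2 (0.48 to 2.14). With FitHiChIP it was 1.34 for Tbx3 (0.36 to 2.70) and 0.65 for Tbx2 (-0.47 to 2.05), where the Tbx2 interval includes 0. A relative change of 2-fold or more upwards was found for 16.3% of 5730 marked bins with at least 10 loops, and 15.2% moved as far downwards. Tbx5, with 0 loops in NPC control against 9 in ESC control, had too few loops for that background. Its interval ended at -1.53. With FitHiChIP the Tbx5 start bin had 0 loops against 4, and the interval, which ended at 0.18, includes 0. The relative change of the inner Tbx5 bin was -1.55 (-3.56 to -0.04). That bin was picked on its summed loops and had the most only in the ESC lists, so its value is no separate support. For Tbx4 the relative change was 0.04 (-1.66 to 2.09).

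With auxin in both cell types Tbx3 and Tbx2 again had more loops in NPCs, while Tbx4 had 0 in NPC auxin and 1 in ESC auxin. Tbx3 had a relative change of 0.85 in NPC auxin against ESC auxin (-0.14 to 2.14), an interval that includes 0, and Tbx2 had 1.35 (0.50 to 2.48), where 16.3% of 2682 bins were at least 2-fold higher. With FitHiChIP the Tbx2 value was 0.093 (-1.84 to 2.18). Between the cell types, the reads covering each bin differed in the same direction as these counts. Reads at Tbx3 per 1000000 contacts in the FitHiChIP lists were 234 in NPC auxin, 244 in NPC control, 199 in ESC auxin and 183 in ESC control. At Tbx2 they were 278 in NPC auxin, 300 in NPC control, 150 in ESC auxin and 153 in ESC control, and at the inner Tbx5 bin 105, 104, 155 and 144 in that order. Coverage and loop counts were thus ordered alike by cell type, but not always by auxin. In ESCs, reads at Tbx3 and at the inner Tbx5 bin were higher with auxin, where loops were fewer. The part of coverage in the loop counts was not tested.

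All 15 Tbx3 loops of ESC control were called again in NPC control (100%, interval 78.2% to 100%), where 50.3% of all ESC control loops were; in FitHiChIP it was 6 of 9 beside 53.5%. Tbx2 kept 15 of 17 loops in that comparison in MAPS, and 5 of 9 (55.6%) in FitHiChIP, near the 53.5% of all. In NPC control Tbx3 had 64 loops and Tbx2 60, where the median marked bin had 4. In NPC auxin they had 29 and 49, with a median of 3. The shares of all loops set beside Tbx3 and Tbx2, here and below, come mostly from bins with fewer loops and are not a like comparison. In the auxin lists of MAPS 9 of 10 Tbx3 loops and 10 of 12 Tbx2 loops of ESC auxin were called in NPC auxin, beside 37.8% of all. In FitHiChIP it was 4 of 6 for Tbx3 and 2 of 5 for Tbx2, beside 46.4% of all. The high share of Tbx2 was thus not repeated in FitHiChIP. At these shared loops the contact counts differed between Tbx3 and Tbx2. Log2 contacts were taken relative to the median over every loop common to both lists. For NPC control against ESC control their median was 0.11 over the 15 Tbx3 loops (12 higher, 3 lower). Over the 15 Tbx2 loops it was 0.77 (all 15 higher). Over the 5 loops of the inner Tbx5 bin it was -0.66 (all 5 lower). That bin was picked on its summed loops and had the most only in the ESC lists. Lower counts in NPCs are favoured by that choice, so its value is no separate support.

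Tbx3 reached towards lower coordinates, away from Tbx5. All loops of its bin ran that way in NPC control (64 of 64), ESC auxin (10 of 10) and ESC control (15 of 15), as did 28 of 29 in NPC auxin. The exception joined the Tbx3 bin to the start of Rbm19, which encodes a nucleolar RNA-binding protein, across Tbx5 at 440 kb, with 30 contacts where MAPS expected 14.4 (ratio 2.08, FDR 0.0029). A bin whose loops all run to 1 side is common. Of marked bins with at least 10 loops it was 57.2% in NPC auxin, 49.5% in NPC control, 61.3% in ESC auxin and 55.5% in ESC control, and of bins with at least 25 loops 45.0% in NPC auxin and 42.6% in NPC control.

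The contacts formed a dense block close to the gene and separate groups further out. Loops at -100, -90, -80, -70 and -60 kb were called in all 4 MAPS lists, within and around the non-coding genes AW549542 and Tbx3os1. The partner at -90 kb (chr5:119580001-119590000, at the edge of AW549542) had the lowest FDR among Tbx3 loops in every MAPS list, with 247 contacts in NPC auxin (expected 54.1), 249 in NPC control (expected 42.3), 227 in ESC auxin (expected 61.8) and 195 in ESC control (expected 49.6). That bin was marked as an H3K4me3 peak in the ESC lists and not in the NPC lists, while its contact counts stayed within 195 to 249. The loops at -370 kb, in the non-coding gene Gm31190, and at -300 kb were also called in all 4 lists. At -300 kb the counts were 41 in NPC auxin, 45 in NPC control, 39 in ESC auxin and 47 in ESC control.

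The most distant partner called in all 4 MAPS lists lay at -890 kb (chr5:118780001-118790000), next to Med13l, which encodes a subunit of the Mediator kinase module. It had 31 contacts in NPC auxin (interval 21.1 to 44.0), 39 in NPC control (27.7 to 53.3), 17 in ESC auxin and 17 in ESC control (9.90 to 27.2 for each ESC list). The ratio of count to expected was 6.32 in NPC auxin and 9.94 in NPC control, the highest of any Tbx3 loop in those lists, against 2.88 in ESC auxin and 3.39 in ESC control. The bin was marked as a peak in the NPC lists and not in the ESC lists, the reverse of the bin at -90 kb. Few partners held a protein-coding gene. Of 69 Tbx3 partner bins over the MAPS lists, 47 held no annotated gene, 19 held only non-coding genes and 3 overlapped a protein-coding gene, and 8 of the 69 were called in all 4 lists.

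**Figure D2:**
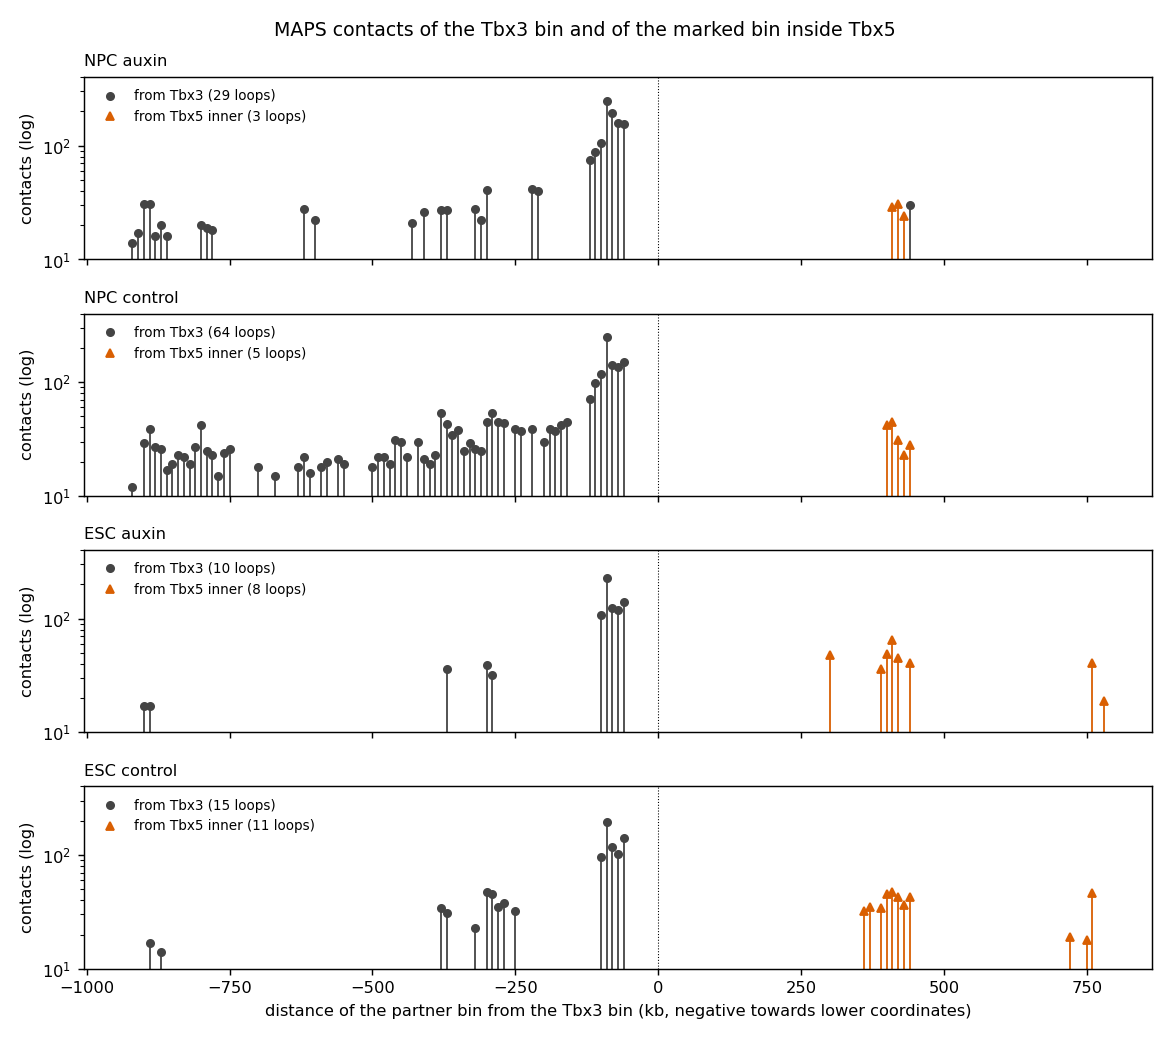
Contacts (log axis) of each MAPS loop of the Tbx3 bin (circles) and of the marked bin inside Tbx5 (triangles), against the distance of the partner from the Tbx3 bin in kb, with 1 panel per list. Tbx3 partners lie at negative distances apart from 1 at 440 kb in NPC auxin, those of Tbx5 lie at positive distances, and the fullest panel is NPC control with 64 Tbx3 loops.

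With auxin, the number of Tbx3 loops in the MAPS lists was lower by about as much as that of all loops. NPC auxin had 29 Tbx3 loops against 64 in NPC control, 45.3% of the control number, where the whole list had 50.3%, and the relative change was -0.12 (interval -0.84 to 0.50). In ESCs there were 10 in ESC auxin against 15 in ESC control, 66.7% where the whole list had 48.7%, with a relative change of 0.50 (-0.86 to 1.70). Both intervals include 0. Over marked bins with at least 10 loops, 11.9% of 5017 moved 2-fold or more downwards and 14.6% upwards in NPC auxin, and 11.0% of 3500 downwards and 22.1% upwards in ESC auxin. The FitHiChIP lists gave a larger difference in NPCs, with 9 loops in NPC auxin against 33 in NPC control and a relative change of -0.91 (-2.27 to 0.07).

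Of the 64 Tbx3 loops of NPC control, 24 were called again in NPC auxin (37.5%, interval 25.7% to 50.5%), where 27.0% of all loops were. In FitHiChIP the order was the other way, with 7 of 33 Tbx3 loops (21.2%, 8.98% to 38.9%) beside 35.8% of all loops. In ESCs 9 of 15 were called again in ESC auxin (60.0%, 32.3% to 83.7%) beside 22.9% of all MAPS loops, and in FitHiChIP 4 of 9 beside 43.3% of all. By distance, the share in NPCs was 7 of 11 loops under 200 kb, 6 of 17 from 200 to 400 kb, 2 of 18 from 400 to 700 kb and 9 of 18 from 700 to 1000 kb. Among these Tbx3 loops the stretch of 400 to 700 kb had the lowest share and the loops near the gene the highest, over few loops in each class. Shares of all loops by distance were not computed, so this order cannot be called particular to Tbx3. No ESC list had a Tbx3 loop between 400 and 700 kb.

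Where a Tbx3 loop was called with and without auxin, its contacts were close to the control in most cases. Control loops not called with auxin are left out here, so counts near the control are favoured by the choice of loops. Over the 24 shared loops in NPCs the log2 contacts, taken relative in the same way, of NPC auxin against NPC control had a median of -0.04, with 11 higher and 13 lower. They ranged from -1.0 at -800 kb, with 20 contacts in NPC auxin and 42 in NPC control, to 0.54 at -80 kb, with 194 in NPC auxin and 140 in NPC control. The loop at -380 kb had 27 contacts in NPC auxin and 54 in NPC control. Over all MAPS loops shared in NPCs, the 10th and 90th percentiles of the relative log2 contacts were -0.65 and 0.49. In ESCs the median over 9 shared loops was 0.20 for ESC auxin against ESC control, with 7 higher and 2 lower.

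For Tbx2, auxin and control differed less in MAPS than the whole lists did, and the callers gave opposite directions. NPC auxin had 49 loops against 60 in NPC control, a relative change of 0.70 (interval 0.12 to 1.27). In MAPS the interval included 0 with chromosome totals in place of list totals (0.36, -0.22 to 0.92). It also included 0 with 1 bin added on either side (0.24, -0.19 to 0.64). In FitHiChIP the counts were 6 and 20 and the relative change -0.73 (-2.49 to 0.49). In MAPS 40 of the 60 loops of NPC control were called again (66.7%, 53.3% to 78.3%), where 27.0% of all loops were, and in FitHiChIP 5 of 20 (25%, 8.66% to 49.1%) beside 35.8%. ESC auxin had 12 loops and ESC control 17, with 5 of the 17 called again (29.4%), near the 22.9% of all loops. The log2 contacts at shared loops, relative to those of all loops, had a median of 0.07 over 40 loops in NPCs and -0.61 over 5 in ESCs. The ESC value was not repeated in FitHiChIP, where the median over 4 loops was 0.07, with 2 higher and 2 lower.

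Tbx2 loops ran to both sides, with 40 towards lower and 9 towards higher coordinates in NPC auxin, 41 and 19 in NPC control, 8 and 4 in ESC auxin and 12 and 5 in ESC control. Of 72 MAPS partner bins, 37 lay in Bcas3, the gene next to Tbx2 on the lower side. The partner at -310 kb (chr11:85520001-85530000), inside Bcas3, had 69 contacts in NPC auxin, 117 in NPC control, 36 in ESC auxin and 59 in ESC control. At -130 kb the counts were 69 in NPC auxin, 133 in NPC control, 52 in ESC auxin and 107 in ESC control. Both partners, each of lowest FDR in a control list, were lower with auxin in both cell types. Picking partners that are extreme in a control list favours lower counts with auxin. On the other side, the bin at the upper end of Brip1, which encodes a DNA helicase acting with Brca1, did not follow them, with 56 contacts in NPC auxin, 54 in NPC control, 31 in ESC auxin and 30 in ESC control. The partner of lowest FDR in NPC auxin, at -140 kb, had 107 contacts there and 109 in NPC control. It had 48 in ESC control and was not called in ESC auxin. Of the 40 Tbx2 loops shared in NPCs, 21 were higher and 19 lower with auxin, relative to all shared loops.

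**Figure D3:**
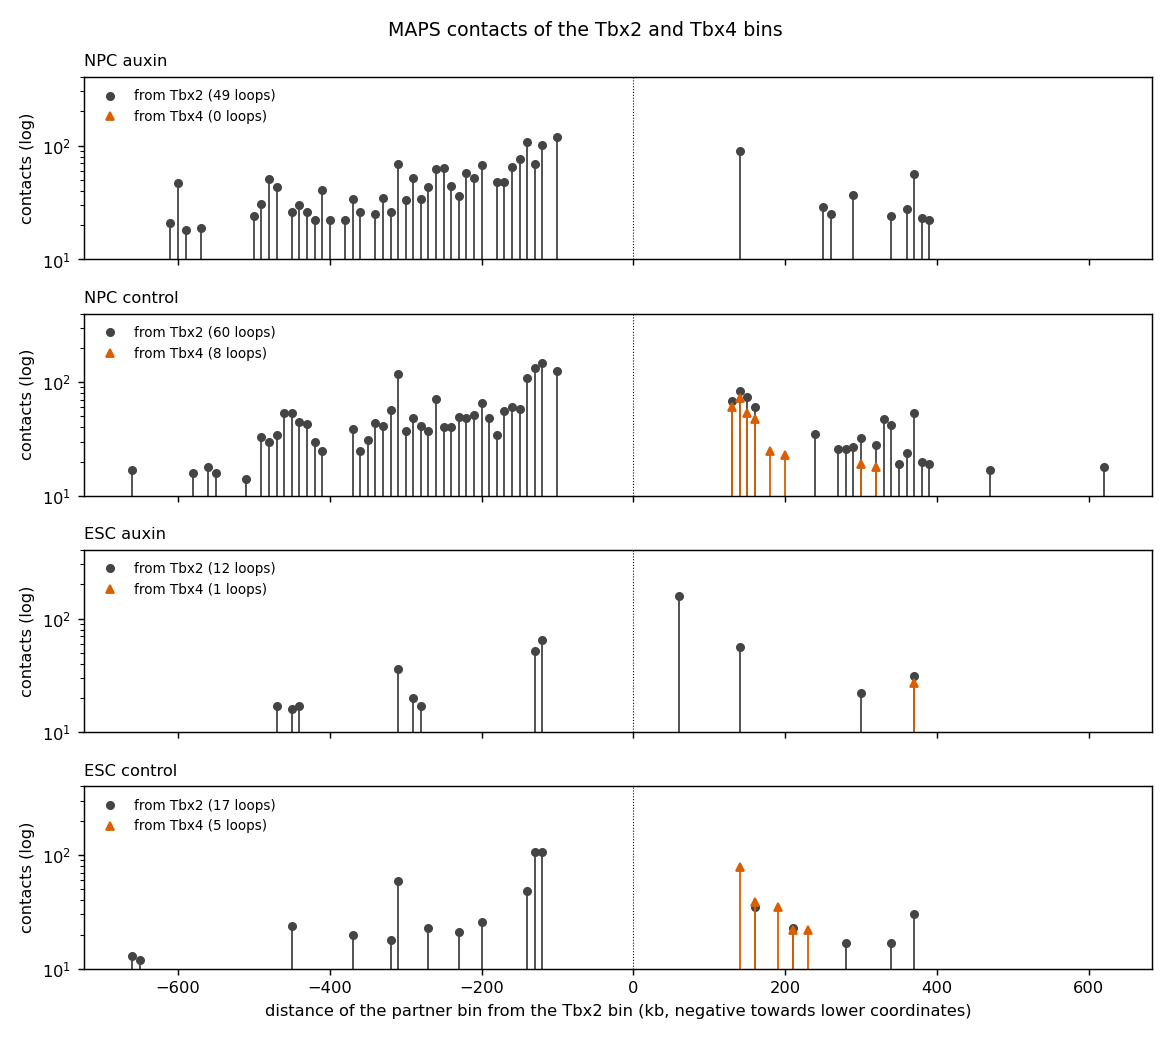
Contacts (log axis) of each MAPS loop of the Tbx2 bin (circles) and the Tbx4 bin (triangles), against the distance of the partner from the Tbx2 bin in kb, with 1 panel per list. Tbx2 loops lie on both sides in every list, Tbx4 loops lie only at positive distances, and Tbx4 has no loop in NPC auxin.

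**Figure D4:**
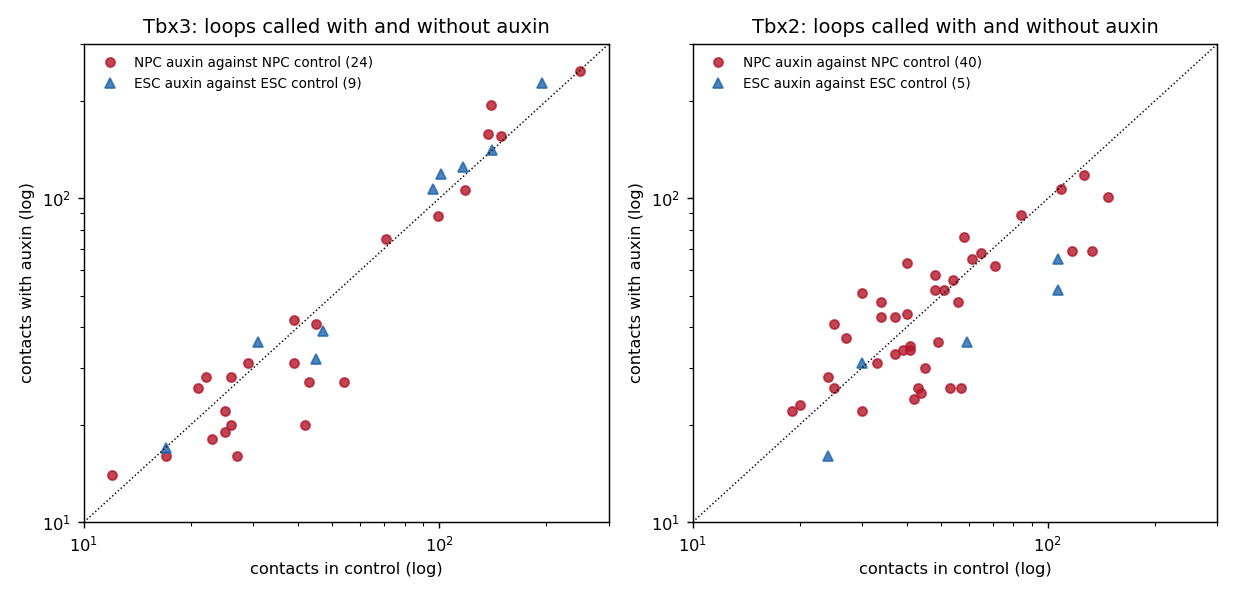
Contacts of each MAPS loop called with and without auxin, with the auxin list on the vertical and the control list on the horizontal log axis, for Tbx3 (left) and Tbx2 (right); circles are NPCs, triangles ESCs, and the dotted line marks equal counts. Tbx3 loops lie near the line (24 in NPCs, 9 in ESCs), and the strongest Tbx2 loops of ESC control lie below it. Singling out loops that are strong in control favours that side.

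No list of either caller held a loop between Tbx3 and Tbx5. This held for the start bins, for anchors within 1 bin of them and for any pair of bins of the gene bodies, in all 8 lists. The lists give only pairs past a threshold, so a weaker contact is not detectable in them. Loops that ran from Tbx3 or below it to Tbx5 or beyond numbered 1 in NPC auxin, 0 in NPC control, 1 in ESC auxin and 0 in ESC control in MAPS. For FitHiChIP, which reaches 2000 kb, the numbers were 1 in NPC auxin, 1 in NPC control, 5 in ESC auxin and 1 in ESC control. Tbx3 and Tbx5 start bins had no partner bin in common in any list; the inner Tbx5 bin and Tbx3 shared 1, the bin beside Med13l, in the FitHiChIP list of NPC auxin.

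The direction of loops changed between the genes. Marked bins from 10 kb below to 10 kb above the Tbx3 bin had loops to lower coordinates in all 4 MAPS lists, apart from the Rbm19 loop. The bin at 30 kb had 10 lower and 3 higher loops in NPC auxin, 19 and 1 in NPC control, 10 and 2 in ESC auxin and 32 and 0 in ESC control. At 70 kb the numbers were 0 lower and 6 higher in NPC auxin, 0 and 6 in NPC control, 0 and 2 in ESC auxin and 1 and 3 in ESC control. From 120 to 190 kb, within Tbx5, every MAPS loop of a marked bin ran to higher coordinates in all 4 lists. An unmarked bin at 150 kb had 1 MAPS loop to lower coordinates, over 730 kb with 17 contacts in ESC auxin. The change of direction lay between 40 and 70 kb with and without auxin. FitHiChIP had exceptions inside Tbx5, with 1 lower loop at 160 kb in NPC auxin and in ESC control, and 1 lower loop at 120, at 130 and at 190 kb in ESC auxin.

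**Figure D5:**
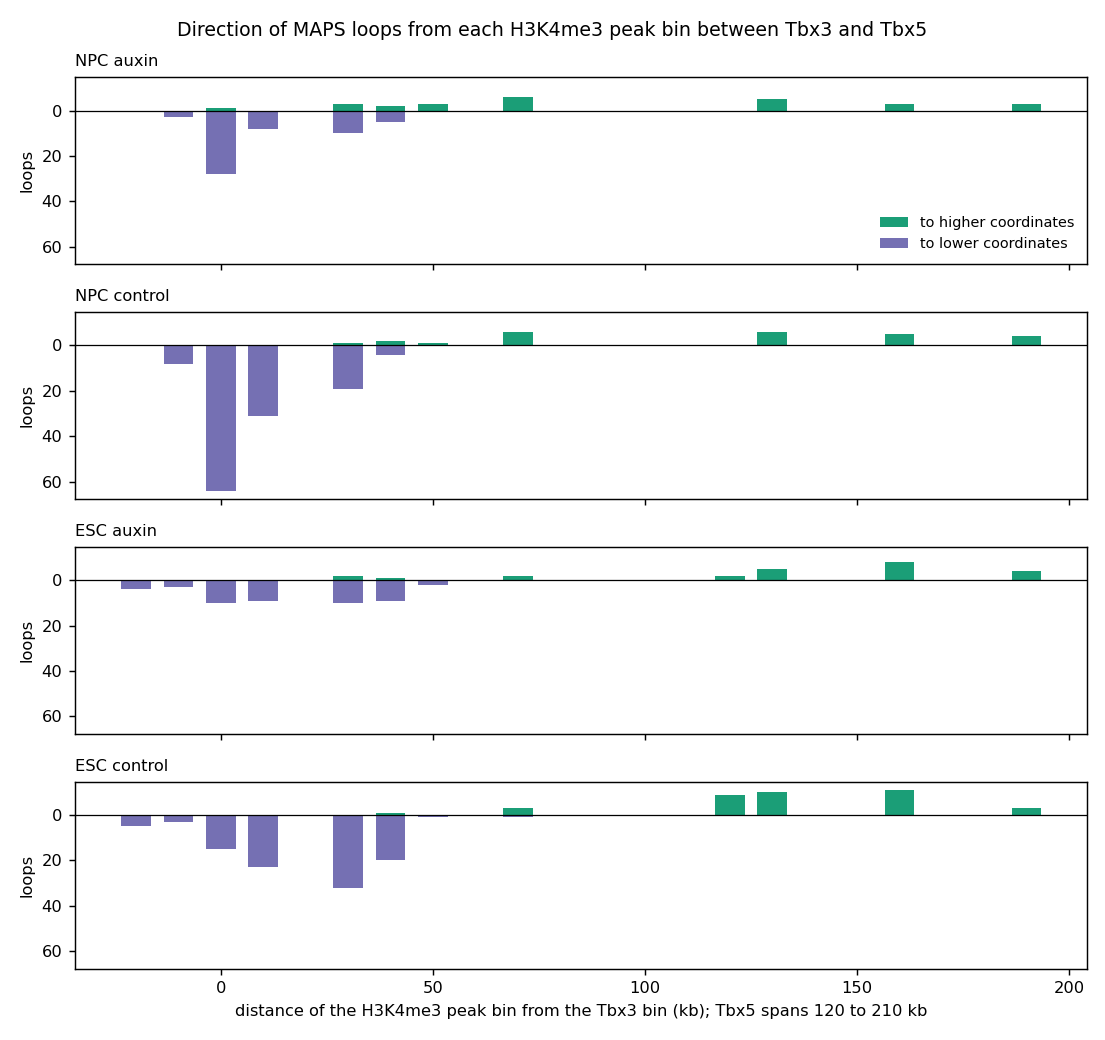
MAPS loops to higher (bars up) and lower coordinates (bars down) from each H3K4me3 peak bin, against its distance from the Tbx3 bin in kb, with 1 panel per list. Bars point mostly down up to 40 kb and only up from 120 to 190 kb in each panel, and the largest is Tbx3 itself in NPC control (64 lower loops).

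Tbx5 contacts in MAPS led mainly to the stretch short of Rbm19, to the Rbm19 bin in some lists and, in ESCs, to Lhx5. The start bin's lowest FDR in ESC control was at 300 kb, short of the Rbm19 start, with 36 contacts where 6.11 were expected, and ESC auxin had 18 contacts there. From the inner bin, the partner at 250 kb had 29 contacts in NPC auxin, 45 in NPC control, 65 in ESC auxin and 47 in ESC control. That partner holds no annotated gene and lies about 32 kb from Rbm19. The Rbm19 bin itself, at 280 kb, had 28 contacts in NPC control, 41 in ESC auxin and 43 in ESC control. It was not called from the inner bin in NPC auxin. From the start bin it was called only in ESC control, with 20 contacts. Lhx5, a LIM homeobox transcription factor gene of the developing brain, was reached from the inner bin at 600 kb with 41 contacts in ESC auxin and 46 in ESC control and was not called in the NPC lists. The start bin of Tbx5 reached it with 22 contacts in ESC control alone. In ESC auxin, 2 of the 9 start bin loops of ESC control were called again (22.2%), close to the 22.9% of all loops, and 6 of 11 for the inner bin (54.5%, interval 23.4% to 83.3%).

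Tbx2 and Tbx4 were joined in ESC lists. Between the start bins, 50 kb apart, 1 list held a loop, FitHiChIP in ESC auxin, with 146 contacts where 85.7 were expected (ratio 1.70). Between Tbx2 and the inner Tbx4 bin, 60 kb away, MAPS called a loop in ESC auxin with 159 contacts (interval 135 to 186), where 69.7 were expected (ratio 2.28), and in no other list. FitHiChIP called the same pair with 146 contacts in ESC auxin (ratio 2.18) and with 118 in ESC control (ratio 1.62). The MAPS ratio has a minimum of 2.00, so the ESC control pair may lie under a threshold of that caller. Neither caller listed the pair in NPCs.

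Further out, Tbx4 and Tbx2 shared partners. In the MAPS list of NPC control 6 of the 8 Tbx4 partner bins were also Tbx2 partners, all on the higher side. It was 2 of 5 in ESC control and 1 of 1 in ESC auxin. FitHiChIP had no loop of the Tbx4 start bin in NPC control. The share for other bins 50 kb apart was not computed, so the overlap cannot be called particular to this pair. All MAPS loops of the Tbx4 start bin ran to higher coordinates, away from Tbx2. The inner Tbx4 bin had 2 lower and 1 higher MAPS loops in ESC auxin. The partner of the start bin at 90 kb had 72 contacts in NPC control and 78 in ESC control and was not called with auxin. With 0 Tbx4 loops in NPC auxin, none of the 8 of NPC control were called again, and none of the 5 of ESC control were called in ESC auxin. Of all loops, 27.0% were called again in NPC auxin and 22.9% in ESC auxin, so the Tbx4 counts are too small to set apart. Beyond the range of MAPS, FitHiChIP joined Tbx2 to the bin of Lhx1, another LIM homeobox gene, at 1310 kb with 32 contacts in ESC auxin and 33 in ESC control (ratio 13.0 for each). Tbx4 reached the same bin at 1360 kb with 11 contacts in ESC auxin and 17 in ESC control. Neither was called in the NPC lists.

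Loops that ran from Tbx2 or below it to Tbx4 or beyond outnumbered those across the other pair. They numbered 20 in NPC auxin, 54 in NPC control, 18 in ESC auxin and 37 in ESC control in MAPS, against 1, 0, 1 and 0 across Tbx3 and Tbx5 in the same order. In FitHiChIP they numbered 2, 15, 7 and 16 in that order, against 1, 1, 5 and 1. The FitHiChIP numbers of the pairs were thus close in both auxin lists. The pairs differ in spacing and in the number of marked bins, and no test of the difference was made.

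Other T-box genes had fewer loops than Tbx3 and Tbx2 in NPC auxin, NPC control and ESC control, and in ESC auxin Tbx18, with 11, had 1 more than Tbx3. Of 13 on the list, 11 had a marked bin, and their MAPS loops summed to 66 in NPC auxin, 81 in NPC control, 28 in ESC auxin and 47 in ESC control. In NPC control 7 had more loops than in ESC control, 1 fewer and 1 equal. The NPC control list was 146% as long as that of ESC control, and the share over all marked bins was not computed. Tbx18, which acts in heart and ureter development, had 25 in NPC auxin, 26 in NPC control, 11 in ESC auxin and 11 in ESC control. Eomes, which acts in mesendoderm and in cortical progenitors, had 7 in NPC auxin, 13 in NPC control, 1 in ESC auxin and 10 in ESC control. In NPC auxin against NPC control, 6 of 9 had fewer loops, 2 more and 1 equal. Of all marked bins with a loop in either list, 71.2% had fewer.

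The 27 marked bins of protein-coding neighbours within 1 Mb had 71 loops in NPC auxin, 136 in NPC control, 80 in ESC auxin and 126 in ESC control. In NPC control, 13 had fewer loops than in ESC control, 11 had more and 3 had equal numbers. The share over all marked bins was not computed for that comparison. With auxin, 21 of 26 had fewer loops in NPCs and 17 of 25 in ESCs, near the 71.2% and 69.7% of all marked bins with a loop in either list. Rbm19 had 15 loops in NPC auxin, 16 in NPC control, 2 in ESC auxin and 12 in ESC control.

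Over the 4 MAPS lists, 842 protein-coding promoter bins had at least 40 loops, and the bins with loop counts most like Tbx3 were those of Trib2, Jarid2, Shh, Maml3 and Mn1. The root mean square difference in log2 loops plus 1 over 4 lists was 0.13 for Trib2, with 31 loops in NPC auxin, 56 in NPC control, 9 in ESC auxin and 16 in ESC control. It was 0.21 for Jarid2, 0.21 for Shh, 0.24 for Maml3 and 0.26 for Mn1. Shh, the hedgehog ligand gene, had 29 loops in NPC auxin, 52 in NPC control, 8 in ESC auxin and 15 in ESC control.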

How the data were processed

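H3K4me3 PLAC-seq lists of 8 samples in 4 groups were analysed; the 6 samples with dCas9 were not analysed here. Versions of BWA and Picard, which the submitters' processing notes list with the build mm10, are not stated. Per the labels, 1 deposited list per group came from MAPS and 1 from FitHiChIP; pooling of a group's 2 samples before calling is not stated there. Per the file headers, MAPS lists give a count, an expected signal, their ratio, an FDR (a q-value) and a peak mark per anchor, and in the deposited lists every count was at least 12, every ratio at least 2.00 and every FDR under 0.01, over 20 to 1000 kb on 19 chromosomes. The deposited FitHiChIP lists give contact counts, counts of reads covering each anchor, an expected contact signal, the expected fraction of all contacts and a q-value, over 20 to 2000 kb. Dividing the deposited expected contacts by the fraction yielded each list's total.

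Loops were matched by identical bins. Gene starts came from a RefSeq table (GRCm38.p6) without strand, so the lower coordinate was taken as the start of each member; for Tbx5 and Tbx4 this may not be the start used. Relative changes carry a pseudocount of 1, and their exact Clopper-Pearson intervals none. The named items were the 4 members, for each list their partner of lowest FDR and their farthest, partners in all 4 MAPS lists, a fixed list of T-box genes, neighbours within 1 Mb, and the 5 bins most like Tbx3; the loops at -800 and -380 kb, the Lhx1, Lhx5 and Rbm19 loops and the bins between the genes were chosen after their values were seen. Members and lists were chosen with earlier results of these data known. Python 3.11.15, pandas 2.3.3, numpy 2.4.6, scipy 1.17.1 and matplotlib 3.10.9 were used, and the relative change was tested on simulated data. Alternatives were the other caller, its loops within 1000 kb, an FDR under 0.001, 1 bin on either side, no or chromosome totals, and a pseudocount of 0.5.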

Additional observations from a re-analysis of the deposited data

Results flagged for a closer look

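The relative change of Tbx3 loops with auxin had opposite signs in the cell types, -0.12 in NPC auxin against NPC control and 0.50 in ESC auxin against ESC control. Both intervals include 0, and the difference between them was not tested.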

How the results depend on the processing

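Of 123 values recomputed under an alternative, 108 stayed within the counting interval of the value reported or at its count; the causes of the differences were not tested. Of 107 relative changes among them, 14 changed sign, 11 of these where the interval reported includes 0. These 11 were 2 for Tbx2 in ESC auxin against ESC control (-0.18 with FitHiChIP, -0.47 without list totals), 1 for Tbx3 there (-0.54 without list totals), 1 for Tbx5 there (0.62 for the inner bin), 4 for Tbx4 there (0.36 to 2.28) and 3 for Tbx4 in NPC control against ESC control (-1.42 to -0.088). Tbx3 in NPC auxin against NPC control moved to -0.91 with FitHiChIP and to -1.12 without list totals. Tbx2 in that comparison changed sign, to -0.73 with FitHiChIP, -0.60 with FitHiChIP within 1000 kb and -0.29 without list totals. Tbx2 in NPC auxin against ESC auxin moved to 0.093 and 0.32 with FitHiChIP and FitHiChIP within 1000 kb, and Tbx4 in ESC auxin against ESC control to 2.28 with FitHiChIP within 1000 kb. The share of Tbx3 loops called again was 86.7% in ESC auxin, 65.6% in NPC auxin and 100% of ESC auxin loops in NPC auxin when anchors could differ by 1 bin; with FitHiChIP it was 21.2% in NPC auxin and 66.7% of ESC control loops in NPC control. Lists with a Tbx2 to Tbx4 loop numbered 1 with FitHiChIP and 1 within 1 bin, against 0 in MAPS start bins. The inner bins of Tbx5 and Tbx4 were chosen after seeing the data.

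No paired analysis was possible because each group has 1 list and the lists carry no replicate numbers, and for the same reason no replicate was left out. The lists hold only pairs past each caller's thresholds, and contacts below them are not measured. Alternatives without loops in either list gave no value.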
